A study of Arabidopsis thaliana with 9 samples.

Results

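HRA1 (AT3G10040, HYPOXIA RESPONSE ATTENUATOR 1) encodes a transcription factor of the trihelix family, and its transcript was followed here in roots that grew with little oxygen. It was chosen by its locus identifier, which is paired with 1 row among the 16746 rows that carry exactly 1 gene, out of 38408 rows on the array. The choice was made with earlier results of these data known, so the p values and ranks of HRA1 are a description and no independent support. The tested genotypes were the mutant lines hcr1-1 and hcr1-2, both in the Col-0 background and both labelled as mutants of HCR1, and wild type Col-0 was the genotype they were set against. Plants of all 3 genotypes were 21 days old and had grown in hydroponics with sufficient potassium at a pO2 of 11.1 ± 1.1%, so no sample came from well-aerated roots. Each genotype had 3 arrays, and every array took 100 ng of RNA drawn from 5 pooled plants. The labels call the arrays biological replicates and do not describe the lesion in either line.

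In plants, oxygen is sensed largely through group VII ethylene response factors such as RAP2.12. When oxygen is present, plant cysteine oxidases oxidise the exposed N terminus of these factors and they are degraded. When oxygen is short they persist and switch on genes of fermentation, sugar use and signalling. HRA1 is one of the genes they switch on. Its protein binds RAP2.12 and lowers its activity, so that the response is held back by one of its own products. HCR1 (AT3G24715) is a kinase of the Raf-like group, known for its part in root water permeability and in the response to low oxygen. The comparison of genotypes asks whether the HRA1 transcript of hypoxic roots differs when HCR1 is mutated.

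The signal on this platform is a log2 value per row, normalised by RMA over all arrays. The medians of the arrays lay between 3.41 and 3.48, and the arrays were alike in profile, with a pairwise Pearson r of 0.984 to 0.993 over rows, which are not independent. HCR1 itself had 3.46, 3.25 and 2.36 log2 units in hcr1-1 and 4.24, 4.38 and 4.30 in hcr1-2, against 4.60, 4.85 and 4.88 in Col-0, so the mutant arrays were all lower than those of Col-0. Of the markers listed for the root and the shoot, 3 of 13 and 3 of 10 were on named rows. The root markers EXPA7, EXPA18 and SKS16 summed to 14.5 to 14.6 log2 units in hcr1-1 and 14.3 to 14.6 in hcr1-2, against 13.8 to 14.7 in Col-0. The shoot markers RCA, LHCB4.1 and LHB1B2 summed to 13.435 to 13.590 in hcr1-1 and 13.247 to 13.996 in hcr1-2, against 12.9985 to 14.069 in Col-0. Both sums overlapped between the genotypes, but a sum can hide markers that move in opposite ways. In hcr1-2 against hcr1-1, the log2 difference was -0.39 (SE 0.15) in SKS16, whose arrays did not overlap between the lines. It was 0.34 (SE 0.20) in EXPA18 and -0.03 (SE 0.15) in EXPA7. Levels of different rows cannot be compared on an array, so these markers do not rank root above shoot tissue.

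HRA1 signal was 6.28, 5.09 and 6.44 log2 units on the hcr1-1 arrays, in the order of their replicate numbers. On the hcr1-2 arrays it was 5.29, 4.92 and 5.94. On the Col-0 arrays it was 6.76, 5.62 and 6.91. The genotypes overlapped, since the lowest Col-0 array lay below 2 of the hcr1-1 arrays and below 1 of the hcr1-2 arrays. On the other side, 2 of the Col-0 arrays lay above all 6 mutant arrays, and 3 of the mutant arrays were lower than any from Col-0. The array numbered 2 was the lowest of its genotype in each of the 3 genotypes.

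**Figure D1:**
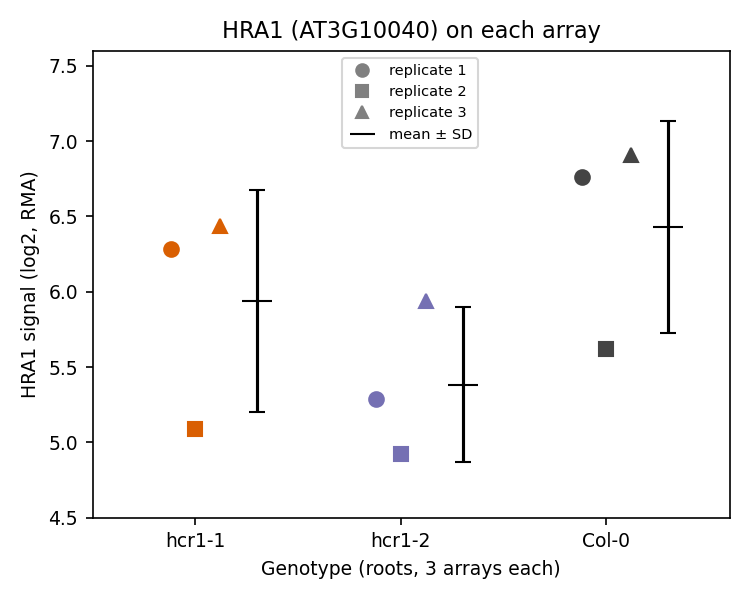
HRA1 signal (log2, RMA) on each of the 9 arrays by genotype, with 1 marker shape per replicate number, and the mean ± SD of the 3 arrays of a genotype as a bar beside them. The means run from 5.38 in hcr1-2 over 5.94 in hcr1-1 to 6.43 in Col-0, and the arrays of the genotypes overlap.

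The mean HRA1 signal was 5.94 ± 0.74 (SD, n = 3) in hcr1-1 and 5.38 ± 0.52 (SD, n = 3) in hcr1-2, against 6.43 ± 0.70 (SD, n = 3) in Col-0. The order of the means was thus hcr1-2, hcr1-1, Col-0 from low to high, and neither step in that order exceeded the pooled SD of 0.66 between arrays of a genotype. In these bulk samples, fewer cells that make HRA1 and less HRA1 RNA in each cell cannot be told apart.

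In hcr1-2 against Col-0, HRA1 had a log2 difference of -1.05 (SE 0.40, 95% interval -1.93 to -0.16). This placed the signal in hcr1-2 at 48.5% of that in Col-0, with an interval from 26.3% to 89.4%. The unadjusted limma p was 0.0244, rank 419 among the rows tested, and the limma adjusted p was 0.903. An exact permutation of 3 against 3 arrays, two-sided, gave p = 0.2, where 0.1 is the smallest possible. HRA1 was therefore not called different in hcr1-2, although its fitted difference was larger than the SD of 0.66 between arrays within genotypes.

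In hcr1-1 against Col-0, the log2 difference of HRA1 was -0.49 (SE 0.40, 95% interval -1.38 to 0.39), which is 71.1% of the signal in Col-0. The limma adjusted p was 1.00 and the exact two-sided permutation p was 0.5. This difference was smaller than the pooled SD between arrays of a genotype. Between arrays of the same replicate number it was -0.48, -0.53 and -0.47. The labels do not say that these numbers mark a batch. Leaving out a single array, which leaves the numbers uneven between genotypes, moved the difference widely. It was -0.07 without hcr1-1 replicate 2 and -0.90 without Col-0 replicate 2. Without Col-0 replicate 1 it was -0.33, without Col-0 replicate 3 it was -0.25, and without hcr1-1 replicate 3 it was -0.74.

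Over the mean of both lines against Col-0, the log2 difference of HRA1 was -0.77 (SE 0.35, 95% interval -1.53 to -0.0033), or 58.7% of Col-0. The unadjusted limma p was 0.0492, the limma adjusted p was 0.998, and the exact two-sided permutation p of 6 against 3 arrays was 0.143. Without Col-0 replicate 2 the difference was -1.17. In hcr1-2 against hcr1-1, HRA1 had a log2 difference of -0.55 (SE 0.40, 95% interval -1.44 to 0.33), a limma adjusted p of 0.923 and an exact two-sided permutation p of 0.3, so the lines were not shown to differ from each other. That difference ran from -0.98 without hcr1-1 replicate 2 to -0.30 without hcr1-1 replicate 3. It was -0.83 without hcr1-2 replicate 3 and -0.32 without hcr1-2 replicate 2.

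No row at all passed an adjusted p of 0.05 by limma in any of the 4 comparisons, so the background of calls was 0% in each. Of the 16746 rows tested, 542 had an unadjusted limma p under 0.05 in hcr1-1 against Col-0 and 904 in hcr1-2 against Col-0. There were 624 such rows in the mean of both lines and 893 in hcr1-2 against hcr1-1. Rows also fall under 0.05 where nothing differs, so these counts alone do not show a difference.

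The spread of HRA1 among arrays of the same genotype was one of the widest in the table. Its SD within genotypes was 0.66 log2 units, against a median of 0.18 over all rows tested, and 99.9% of rows had a smaller one (HRA1 ranked 18 of 16746). Among the other hypoxia genes described below, 8 of 26 had a larger SD within genotypes, and their median was 0.46. From the lowest array to the highest, HRA1 spanned 1.98 log2 units.

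HRA1 was next set beside a list of 49 other genes that low oxygen is known to induce in Arabidopsis, of which 26 were on named rows. The direct regulators of the response could not be set beside it: none of the 17 listed genes of oxygen sensing, RAP2.12 and the plant cysteine oxidases among them, was on a named row. For each array the deviations of the 26 genes from their own means were averaged. That average was 0.35, -0.70 and 0.40 on the hcr1-1 arrays, -0.65, -0.52 and -0.07 on the hcr1-2 arrays, and 0.62, -0.13 and 0.71 on the Col-0 arrays. The deviation of HRA1 from its own mean was 0.37, -0.83 and 0.52 on the hcr1-1 arrays, -0.63, -0.99 and 0.02 on the hcr1-2 arrays, and 0.84, -0.30 and 0.99 on the Col-0 arrays. The 4 arrays with the highest HRA1 signal were also the 4 with the highest average of the other genes.

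Over the 9 arrays, HRA1 and the average of the other hypoxia genes had a Pearson r of 0.976 (exact permutation p = 9.37e-05, two-sided) and a Spearman rho of 0.95 (exact permutation p = 0.000353). This was the only relation tested across arrays. The list was known from earlier results of these data to move together, so the relation is a description and no independent support. Without Col-0 replicates 1 and 3, the arrays farthest from the median, r was 0.954 (exact permutation p = 0.00437). After the mean of each genotype was subtracted from both measures, r was 0.962 (exact permutation within genotypes, p = 0.0231, where 0.00463 is the smallest possible). HRA1 thus followed the other hypoxia genes among arrays of the same genotype as well as across genotypes. No batch was given in the labels, and 3 arrays per genotype are too few for an r within each genotype.

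**Figure D2:**
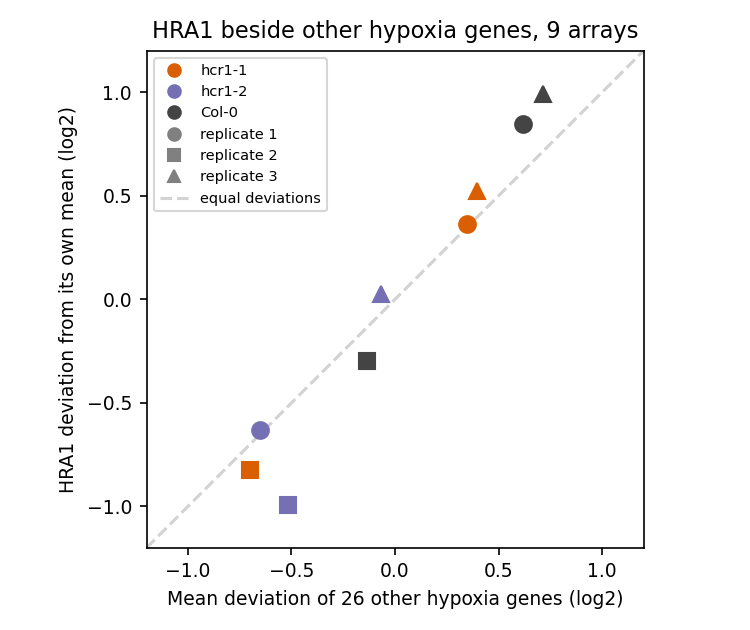
Deviation of HRA1 from its own mean (log2, vertical) against the mean deviation of 26 other hypoxia genes (log2, horizontal) on the 9 arrays, coloured by genotype and shaped by replicate number. The points run along the dashed line of equal deviations with a steeper slope, and hcr1-2 replicate 2 lies farthest below the line.

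HRA1 varied more per unit of this common change than most of the list. Its slope on the average of the other genes was 1.31, while the slopes of the others, each on the average of the rest of the list with HRA1, had a median of 0.88 and ran from -0.04 to 2.64. Of the 26 genes, 8 had a steeper slope. The lowest slopes, -0.04, 0.06 and 0.16, were those of AT5G45960, AT1G05575 and AT1G72940. The rows of these genes were dim, with means of 1.54, 1.99 and 1.26 log2 units. The part of HRA1 that the average did not carry was small on most arrays. HRA1 minus that average was 0.02, -0.13 and 0.13 on the hcr1-1 arrays, 0.02, -0.47 and 0.09 on the hcr1-2 arrays, and 0.23, -0.16 and 0.28 on the Col-0 arrays. The array of hcr1-2 replicate 2 was the one on which HRA1 lay farthest below the other hypoxia genes.

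With the average of the other hypoxia genes as a covariate in the limma fit, every HRA1 difference was positive but below its SE. HRA1 then had log2 differences of 0.02 in hcr1-1 (SE 0.16, 95% interval -0.34 to 0.38) and 0.03 in hcr1-2 (SE 0.20, 95% interval -0.41 to 0.46) against Col-0. It was 0.02 (SE 0.16) in the mean of both lines and 0.01 (SE 0.16) in hcr1-2 against hcr1-1. No difference of HRA1 beyond that of the other hypoxia genes was detectable in this fit. Those intervals do not exclude differences as large as their ends, and they are not a limit of what the fit could call. The covariate itself differed between genotypes, with means of 0.01 in hcr1-1, -0.41 in hcr1-2 and 0.40 in Col-0. Its list was chosen with earlier results of these data known, so the fit is a description and no independent support.

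The genes of known role on the hypoxia list stood as follows in hcr1-2 against Col-0, by log2 difference. Among the enzymes, PDC2, a pyruvate decarboxylase of ethanol fermentation, had -0.61 (SE 0.27) and the peroxidase AT5G39580 had -0.32 (SE 0.17). Among signalling genes, CML38, a calmodulin-like calcium sensor, had -1.57 (SE 0.50) and the universal stress protein HRU1 (AT3G03270) had -1.23 (SE 0.42). The mitochondrial carrier AT5G26200 had -0.82 (SE 0.30). HRA1 at -1.05 lay within this range, between AT5G26200 and HRU1.

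Of the members with other or unknown roles, AT1G10140, AT5G42200 and AT3G10020 had the lowest limma p values when the lines were averaged. The hcr1-1 difference of AT1G10140 was -0.57 (SE 0.16) and its hcr1-2 difference was -0.56 (SE 0.16), nearly the same in each line, beside -0.49 and -1.05 for HRA1. AT5G42200, a RING-type protein, stood at -0.34 (SE 0.24) and -0.89 (SE 0.24) in that order of lines. AT3G10020 stood at -0.23 (SE 0.13) and -0.40 (SE 0.13). None of the list passed a limma adjusted p of 0.05 in any comparison.

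Counted over the list, 24 of the 26 genes had a negative fitted difference in hcr1-2 against Col-0, the list median being -0.73, beside a median of 0.01 over all rows tested. In hcr1-1 it was 23 of 26 with a median of -0.39, beside 0.00 over all rows. HRA1 lay below both list medians. In hcr1-2, 8 of the 26 had a more negative difference than HRA1, the most negative being AT5G10040 at -2.23, which is named here after its value was seen. In hcr1-1, 11 of the 26 did.

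At an unadjusted limma p under 0.05 and lower, the count in the list was 18 of 26 in hcr1-2 against a background of 2.35% of all rows. HRA1 was also within that class. In hcr1-1 the count was 1 of 26 against 1.28% of all rows, and in the mean of both lines it was 11 of 26 against 1.64%. In hcr1-2 against hcr1-1 it was 2 of 26 against 2.31%. The genes of the list moved together over the arrays, so such counts are not counts of independent events. The list was also chosen with earlier results of these data known. The counts and signs given for it are therefore a description and no independent support. Arrays of hcr1-2 and Col-0 did not overlap, with hcr1-2 lower, in 8 of the 26, against 4.34% of all rows, and HRA1 was not among them. For hcr1-1 this held for 1 of the 26, against 4.02% of all rows.

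In the trihelix family, to which HRA1 belongs by its DNA-binding domain, fitted differences were small. Trihelix proteins bind GT-rich elements of plant promoters and take part in light responses, organ growth and stress responses. Besides HRA1, 22 of 27 listed family members were on named rows. In hcr1-2 against Col-0 their log2 differences ran from -0.19 to 0.34 with a median of 0.03, and 10 of the 22 had a negative sign. In hcr1-1 they ran from -0.12 to 0.27 with a median of 0.01, again with 10 of the 22 negative. The fitted HRA1 differences of -1.05 and -0.49 were thus lower than those of every other measured member in both comparisons. In hcr1-1, however, the 95% interval of HRA1, -1.38 to 0.39, covered the whole range of the other members. HRA1 was called different in neither line. At an unadjusted limma p under 0.05 and lower, 0 of the 22 passed in either line against Col-0, beside 1.28% of all rows in hcr1-1 and 2.35% in hcr1-2. In hcr1-2 against hcr1-1, AT2G35640 alone was within that class, at -0.30 (SE 0.13), beside 2.31% of all rows. These counts are near the shares over all rows and say nothing particular about the family. No member passed after adjustment.

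**Figure D3:**
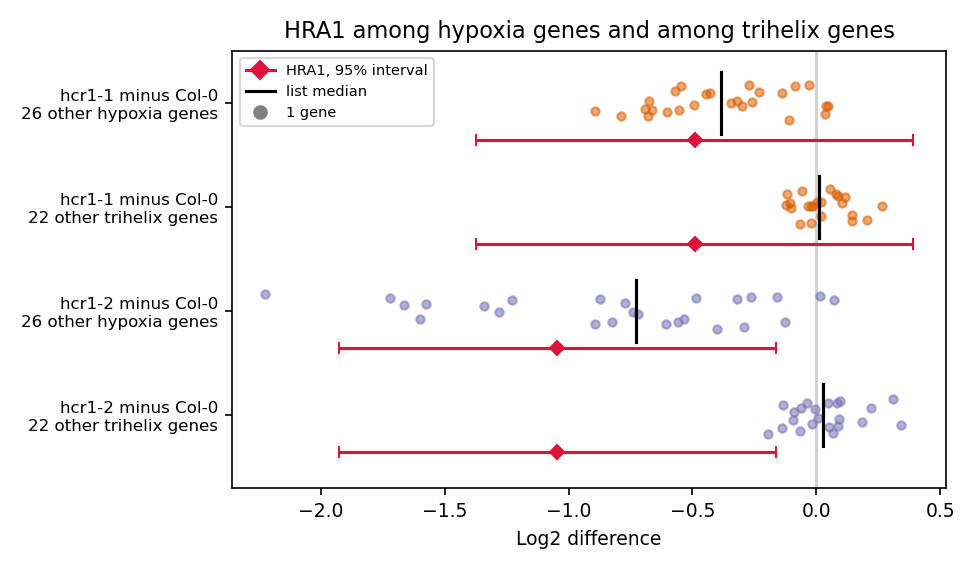
Log2 differences of hcr1-1 and hcr1-2 from Col-0 for 26 other hypoxia genes and for 22 other trihelix genes (1 point per gene, spread vertically at random, black line for the list median), with HRA1 as a red diamond and its 95% interval. HRA1 at -0.49 and -1.05 sits among the hypoxia genes and to the left of all trihelix genes.

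The other family members were also steadier over the arrays. Their ranges from the lowest to the highest array were 0.14 to 1.28 log2 units with a median of 0.55, against 1.98 for HRA1. The widest was that of AT1G76870. The SD within genotypes had a median of 0.17 among them, against 0.66 for HRA1. The founding members GT-1 (AT1G13450) and GT-2 (AT1G76890) had log2 differences of -0.01 and 0.05 in hcr1-2 against Col-0. DF1 (AT1G76880) had -0.06 there, and PTL (AT5G03680), which shapes flower organs, had 0.08. ASR3 (AT2G33550), a regulator of immune responses, had 0.31 (SE 0.15). GT-4 (AT3G25990) had 0.34 (SE 0.17), GT-3b (AT2G38250) had -0.13 and GT-3a (AT5G01380) had 0.09.

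The remaining measured members carry only locus identifiers here, and their differences in hcr1-2 lay between -0.19 and 0.22. They were AT1G21200, AT1G31310, AT1G76870, AT2G35640, AT2G44730, AT3G10030, AT3G11100, AT3G24490, AT3G24860, AT3G54390, AT3G58630, AT4G31270, AT5G05550 and AT5G47660. The member whose profile was most like that of HRA1 was AT3G58630, with an r of 0.83 over the 9 arrays. Its differences were -0.02 (SE 0.13) in hcr1-1 and -0.19 (SE 0.13) in hcr1-2, both smaller than those of HRA1. The median r of the 22 members with HRA1 was -0.05.

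The neighbours of HRA1 on its chromosome were compared in the same way, by their order in the RefSeq gene table of TAIR10.1. Of the 3 protein-coding genes on each side, AT3G10020, AT3G10030 and AT3G10060 were on named rows, and DML2, OMR1 and TAF12 were not. No annotated gene overlaps HRA1 in that table. The adjacent gene AT3G10030, itself of the trihelix family, had log2 signals of 5.93, 5.89 and 6.04 in hcr1-1 and 5.78, 5.96 and 5.81 in hcr1-2, against 5.92, 5.99 and 5.92 in Col-0. Its arrays overlapped throughout, with a log2 difference of -0.09 (SE 0.10) in hcr1-2 against Col-0. AT3G10060, an immunophilin-like protein, had 0.12 (SE 0.17).

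AT3G10020, which lies on the far side of AT3G10030 and is itself on the hypoxia list, had 7.85, 7.78 and 7.89 in hcr1-1 and 7.59, 7.80 and 7.62 in hcr1-2, against 8.11, 7.85 and 8.25 in Col-0. All 3 hcr1-2 arrays were below all 3 Col-0 arrays in this gene. Its r with HRA1 was 0.74 over the 9 arrays and 0.51 after genotype means were subtracted, lower than the median of 0.94 for the list over the 9 arrays. HRA1 and this neighbour on the hypoxia list thus had less similar profiles than HRA1 and most of the list.

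Genes of fermentation and alanine formation, the metabolic side of the response, were measured for 5 of 11 listed members. AlaAT1 (AT1G17290), an alanine aminotransferase, had 8.27, 7.12 and 8.29 log2 units in hcr1-1 and 7.05, 7.001 and 7.77 in hcr1-2, against 8.50, 7.71 and 8.81 in Col-0. It was high and low on the same arrays as HRA1, with an r of 0.985. Its log2 difference was -1.07 (SE 0.35) in hcr1-2 against Col-0, close to that of HRA1. The lactate dehydrogenase gene AT4G17260 had an r of 0.93 with HRA1 and a log2 difference of -0.46 (SE 0.20).

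The 3 pyruvate decarboxylase genes on named rows did not share one profile. PDC2 had an r of 0.98 with HRA1. AT5G01320 had -0.24, with a log2 difference of 0.16 (SE 0.31) in hcr1-2 against Col-0, and PDC3 (AT5G01330) had -0.73, with 0.12 (SE 0.15). The row of AT5G01320 was dim, so its r carries little weight. Its mean was 1.92 log2 units, beside a lower quartile of 1.99 over all rows tested. At an unadjusted limma p under 0.05 and lower, 3 of the 5 genes stood in hcr1-2 against Col-0, beside 2.35% of all rows. They were PDC2, AlaAT1 and AT4G17260. PDC2 was already counted on the hypoxia list, and all 3 followed HRA1 over the arrays, so they are not independent events. In hcr1-1 the count was 0 of 5, beside 1.28% of all rows, which is no departure from that share. None of the 5 passed a limma adjusted p of 0.05.

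Over all 16745 other rows with 1 gene, the Pearson r with HRA1 across the 9 arrays had a median of -0.04 and quartiles of -0.33 and 0.26. An r above 0.95 was found for 34 rows, of which 11 were on the hypoxia list, so that 11 of the 26 listed genes and 23 other rows were that close to HRA1. Within the list the r had a median of 0.94 and ran from -0.14 to 0.99. The lowest, -0.14, 0.08 and 0.43, were those of AT5G45960, AT1G05575 and AT1G72940. Their rows were dim, with means of 1.54, 1.99 and 1.26 log2 units, beside a lower quartile of 1.99 over all rows tested. These are descriptions over 9 arrays that share one normalisation.

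The 10 genes most like HRA1 were AT5G44730 (r = 0.986), AT2G36950 (r = 0.986), CML38 (r = 0.986), AlaAT1 (r = 0.985), AT2G14247 (r = 0.982), AT3G48450 (r = 0.979), PDC2 (r = 0.976), CP5 (r = 0.973), AT1G12805 (r = 0.973) and AT1G26270 (r = 0.972). Of these, AT5G44730, CML38, PDC2 and AT1G26270 were on the hypoxia list and the other 6 were not. AT5G44730 encodes a hydrolase of the haloacid dehalogenase superfamily, AT3G48450 a protein of the RIN4 family, and AT1G26270 a lipid kinase family protein.

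AT5G44730 had 5.20, 4.03 and 5.16 log2 units in hcr1-1 and 4.14, 4.003 and 4.86 in hcr1-2, against 5.38, 4.37 and 5.47 in Col-0. AT2G36950 had 7.53, 6.73 and 7.58 in hcr1-1 and 6.77, 6.61 and 7.07 in hcr1-2, against 7.78, 7.01 and 8.03 in Col-0, and put the 9 arrays in the same order as HRA1 (Spearman rho of 1). CML38 had 4.53, 2.87 and 4.59 in hcr1-1 and 2.83, 2.81 and 3.99 in hcr1-2, against 5.23, 3.86 and 5.26 in Col-0. All 3 genes were lowest on hcr1-2 replicate 2, as HRA1 was, and their genotypes overlapped.

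The 10 genes were picked for a profile like that of HRA1, and they differed in its size, which r does not measure. In hcr1-2 against Col-0 their log2 differences ran from -1.57 in CML38 to -0.49 in AT1G26270, with AT2G14247 at -1.47, AT3G48450 at -1.15, AlaAT1 at -1.07, AT1G12805 at -0.90, CP5 at -0.81, AT2G36950 at -0.79, AT5G44730 at -0.74 and PDC2 at -0.61. In hcr1-1 they ran from -0.79 in CML38 to -0.26 in PDC2. After genotype means were subtracted, the 5 genes most like HRA1 were AT5G44730 (r = 0.991), CML38 (r = 0.983), AlaAT1 (r = 0.982), AT2G36950 (r = 0.982) and AT5G20130 (r = 0.980). The first 4 are also among the 10 above. AT5G20130 followed HRA1 within genotypes but not across them, with log2 differences of 0.03 in hcr1-1 and 0.05 in hcr1-2 against Col-0 and an r of 0.68 over the 9 arrays.

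**Figure D4:**
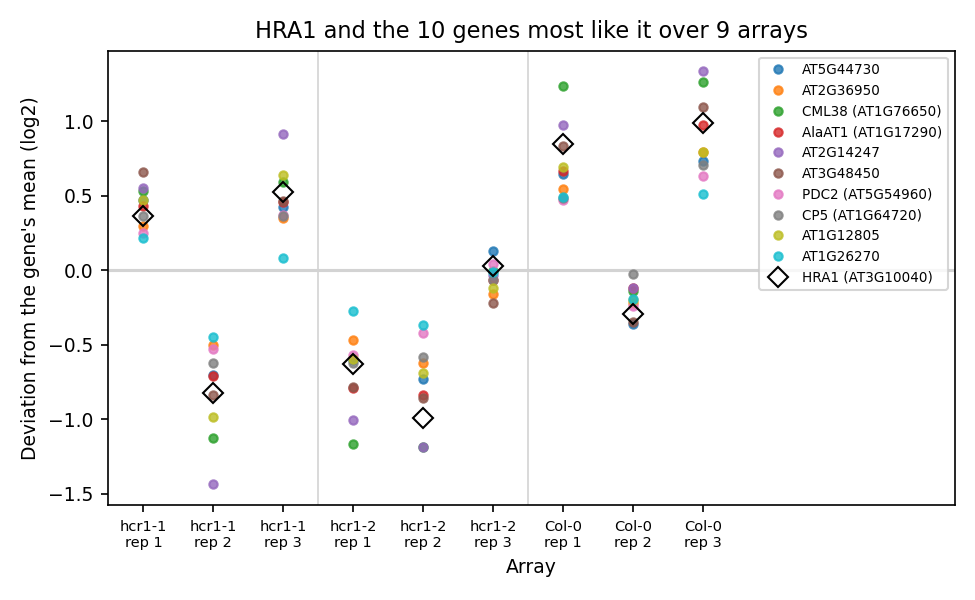
Deviation from the gene's own mean over 9 arrays (log2) for HRA1 (open diamonds) and for the 10 genes with the highest Pearson r to it (coloured points), by array, with the genotypes divided by grey lines. All 11 genes lie above their means on hcr1-1 replicates 1 and 3 and Col-0 replicates 1 and 3, and below them on hcr1-1 replicate 2, hcr1-2 replicates 1 and 2 and Col-0 replicate 2.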

How the data were processed

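Affymetrix Arabidopsis Gene 1.1 ST arrays measured root RNA, 1 array per sample. The deposited values are on the log2 scale and came from Affymetrix Expression Console and RMA, per the submitters' processing notes; versions, settings and build are not given in the sources used here. RMA equalises array distributions and condenses probes to 1 value per row, which hides differences in total signal and in parts of a gene. No scanner output was used, so rows were not called detected. Precision is limited by how many arrays there are.

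Gene names came from the platform annotation, updated by Entrez number (16601 of 16746 matched a RefSeq gene table). Where a gene has several rows, the one with the highest mean stands for it. Groups came from sample titles. limma 3.58.1 in R 4.3.3 (lmFit, contrasts, eBayes) was fitted over all 9 arrays and all 16746 rows, with Benjamini-Hochberg adjustment and a threshold of 0.05, two-sided, and was tested on simulated data. Exact permutation tests of mean differences used scipy 1.17.1. Those of correlations were enumerated directly, over all orders of the arrays or over all orders within genotypes. The p values measure only the spread between the arrays, whose pools the labels call biological replicates.

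Named were HRA1, HCR1, hypoxia genes of known role and the 3 others with the smallest p, measured trihelix, fermentation and neighbouring genes, and the genes most like HRA1 (10 over the arrays, 5 within genotypes). Members and lists were chosen with earlier results of these data known, and the lists were compiled from general knowledge. Alternatives were the compared genotypes alone, a replicate block, renormalisation, median centring, a filter on dim rows, all rows, other variance models, array weights, a covariate, a threshold of 0.1 and leaving out each array. No sequence was used here.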

Additional observations from a re-analysis of the deposited data

How the results depend on the processing

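The 4 HRA1 differences were recomputed under 71 alternatives, counted over all comparisons. In 67 of them the difference kept its direction and stayed short of the threshold, and the smallest adjusted p over all of them was 0.323. The other 4 were the fits with the average of the other hypoxia genes as a covariate, where each value was positive but below its SE. These were 0.017 in hcr1-1 and 0.0283 in hcr1-2 against Col-0, 0.0227 in the mean of both lines and 0.0113 in hcr1-2 against hcr1-1. Leaving out 1 array at a time gave ranges of -0.90 to -0.07, -1.45 to -0.81, -1.17 to -0.53 and -0.98 to -0.30 for hcr1-1, hcr1-2 and their mean against Col-0 and for hcr1-2 against hcr1-1.

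The replicate numbers were not treated as marking shared batches, since the labels do not say so. Over all rows the deviations of same-numbered arrays had correlations of -0.19 to 0.16, of which 2 of 9 were over 0.1. Between arrays of different numbers and genotypes they were -0.20 to 0.24, of which 3 of 18 were over 0.1. Among the 9 arrays, 5 correlated best with an array of their own number. Between arrays of the same number, HRA1 had differences of -0.48, -0.53 and -0.47 in hcr1-1 and -1.47, -0.70 and -0.96 in hcr1-2 against Col-0, and of -0.995, -0.17 and -0.50 in hcr1-2 against hcr1-1, all 9 negative. Of its sum of squares over the 9 arrays, 38.6% lay between genotypes, 56.3% between replicate numbers and 5.18% in the rest. The medians of those shares were 38.9%, 38.2% and 19.4% for the other hypoxia genes and 20.6%, 21.2% and 50.6% for all rows. With the replicate number as a block, limma gave HRA1 -0.49 in hcr1-1 (SE 0.16, unadjusted p = 0.0142, adjusted p = 1.00) and -1.05 in hcr1-2 (SE 0.16, unadjusted p = 0.000108, adjusted p = 0.323) against Col-0. It gave -0.77 in the mean of both lines (SE 0.14, unadjusted p = 0.000369, adjusted p = 0.815) and -0.55 in hcr1-2 against hcr1-1 (SE 0.16, unadjusted p = 0.00765, adjusted p = 0.798), and 0 rows passed in each comparison. Whether the numbers mark a shared growth batch was not tested beyond these values.

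The count of rows passing in hcr1-1 against Col-0 was 1 with the dim rows left out and 1 with trended and robust variances, HCR1 each time. It was 0 to 1 over the fits that left out 1 array, again HCR1, without hcr1-1 replicate 3. In the mean of both lines it was 0 to 2, with HCR1 and AT5G35940 passing without hcr1-1 replicate 3. The other counts stayed at 0. The r of HRA1 with the other hypoxia genes was 0.95 to 0.98 over 6 other settings and 0.97 to 0.99 without each array in turn, below an exact permutation p of 0.05 in each.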

Other observations

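Among the rows without a single named gene, 34 of 21662 also had an r above 0.95 with HRA1 over the 9 arrays, and their genes are not named here. At the opposite end, the most negative r with HRA1 belonged to AT1G28400 (r = -0.96), AT1G56220 (r = -0.95) and AT5G26690 (r = -0.95), which were picked after their values were seen. AT1G56220, of the dormancy and auxin associated family, had 7.09, 7.52 and 7.10 log2 units in hcr1-1 and 7.71, 7.83 and 7.27 in hcr1-2, against 6.99, 7.28 and 6.93 in Col-0. It was highest on hcr1-2 replicate 2, where HRA1 was lowest, and its log2 difference in hcr1-2 against Col-0 was 0.54. AT1G28400 put the 9 arrays in exactly the reverse order of HRA1 (Spearman rho of -1), but its difference in hcr1-2 was only 0.14.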
